A study of Homo sapiens with 2 samples.

Results

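The ephrin, semaphorin, netrin and Slit guidance genes were examined in A1847, an established line of human epithelial ovarian cancer cells that carries a high level of CARM1, an arginine methyltransferase. Members were the protein-coding genes whose symbol begins with EPHA, EPHB, EFNA, EFNB, SEMA, PLXN, ROBO or UNC5, together with NTN1, NTN3, NTN4, NTN5, SLIT1, SLIT2, SLIT3, DCC, NEO1, NRP1 and NRP2. These were 73 of 19391 protein-coding genes and of 57736 genes in the count table. The study sequenced 1 RNA library of parental control cells, labelled CARM1 wild type, and 1 of CARM1 KO cells, a clone made with a lentiviral CRISPR construct, in a study of why cells with much CARM1 respond to inhibitors of EZH2, the methyltransferase of the Polycomb complex. With 1 library per genotype no difference given here has a replicate check, and what sets this clone apart for other reasons cannot be told apart from the loss of CARM1.

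Ephrins are ligands held at the cell surface that bind EPH receptor tyrosine kinases on a neighbouring cell, and the contact can signal into both cells. Semaphorins signal through plexins, and most secreted class 3 semaphorins need neuropilins as co-receptors. Slits are secreted ligands of ROBO receptors, and netrins bind DCC, NEO1 (neogenin) and the UNC5 receptors. These systems are best known for steering axons, and in epithelia and tumours they act on adhesion, migration and vessel growth. UNC50 meets the rule by its letters but is not a netrin receptor, UNC5CL is a related intracellular protein, and EFNA4-EFNA3 is a readthrough gene whose exons lie within those of EFNA4 and EFNA3.

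Sequencing depth was 30741953 reads for the parental and 32300391 reads for the CARM1 KO library. CARM1 itself, on chromosome 19, had 975 parental and 380 KO reads and was 2.63-fold lower (2.33 to 2.97) after KO. Throughout, values in brackets are exact 95% binomial intervals of the reads, which cover counting error only. Marker genes of the cell types that a culture could hold also differed. Of the ovarian epithelial markers with at least 10 reads, 5 of 8 were higher and 1 was lower after KO, and their summed level was 472 RPKM in parental and 1343 RPKM in KO cells. RPKM is reads per kilobase of annotated exon per 1000000 scaled reads. The lower marker was KRT19, with 45 parental and 0 KO reads, and the sum includes VIM at 128 and 274 RPKM. Of the fibroblast markers, 6 of 8 were lower and 1, COL1A1, was higher, and their sum was 172 and 2.56 RPKM. Most of the parental sum was COL3A1 (14587 and 1 reads), COL1A2 (16732 and 3) and PDGFRA (14326 and 2). DCN had 24 and 0 reads, and PDGFRB, with 132 and 142 reads, was neither. Endothelial markers summed to 0.0698 and 0.107 RPKM with 0 of 1 past 3-fold and CDH5 at 0 reads in both libraries. Neuronal markers summed to 2.32 and 15.1 RPKM, with 2 of 5 higher and STMN2 and ELAVL4 at 0 reads in both. Most of that sum was TUBB3 alone, at 1.93 and 13.9 RPKM. Blood cell markers summed to 6.31 and 24.3 RPKM, with 2 of 3 higher and CD3E and HBB at 0 reads in both. Most of this was CD68 alone, at 5.94 and 23.8 RPKM, while PTPRC had 6 and 0 reads. MUC16 and WT1, often used for ovarian carcinoma, had 0 and 1 and had 8 and 1 reads. Fewer cells of a type and less RNA per cell cannot be told apart in such bulk samples, and the part of these marker differences in the values below was not tested.

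A gene was counted as higher or lower in KO cells when its scaled reads differed by more than 3-fold, the fold limit that the study used, and its interval left out 1. Of the 73 guidance genes, 62 had at least 10 reads over the libraries, and 52 had that many in each. Among the 62, 13 were higher, 11 were lower and 38 were neither, or 21.0%, 17.7% and, for either direction, 38.7%. The same shares among the 14140 protein-coding genes with at least 10 reads were 12.4%, 9.02% and 21.4%, and 23.5% of all 18563 genes of any type differed in either direction. With a prior count of 2 added to each library, the median log2 fold change was 0.37 over the 62 guidance genes and 0.03 over protein-coding genes. It was 0.10 when at least 50 reads were required. On this scale single genes ran from -7.60 for EPHA7 to 4.86 for NTN4, while by the plain ratio of scaled reads UNC5C was the lowest. Both directions occurred within the EPHA receptors, the class 3 semaphorins and the neuropilins.

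**Figure D1:**
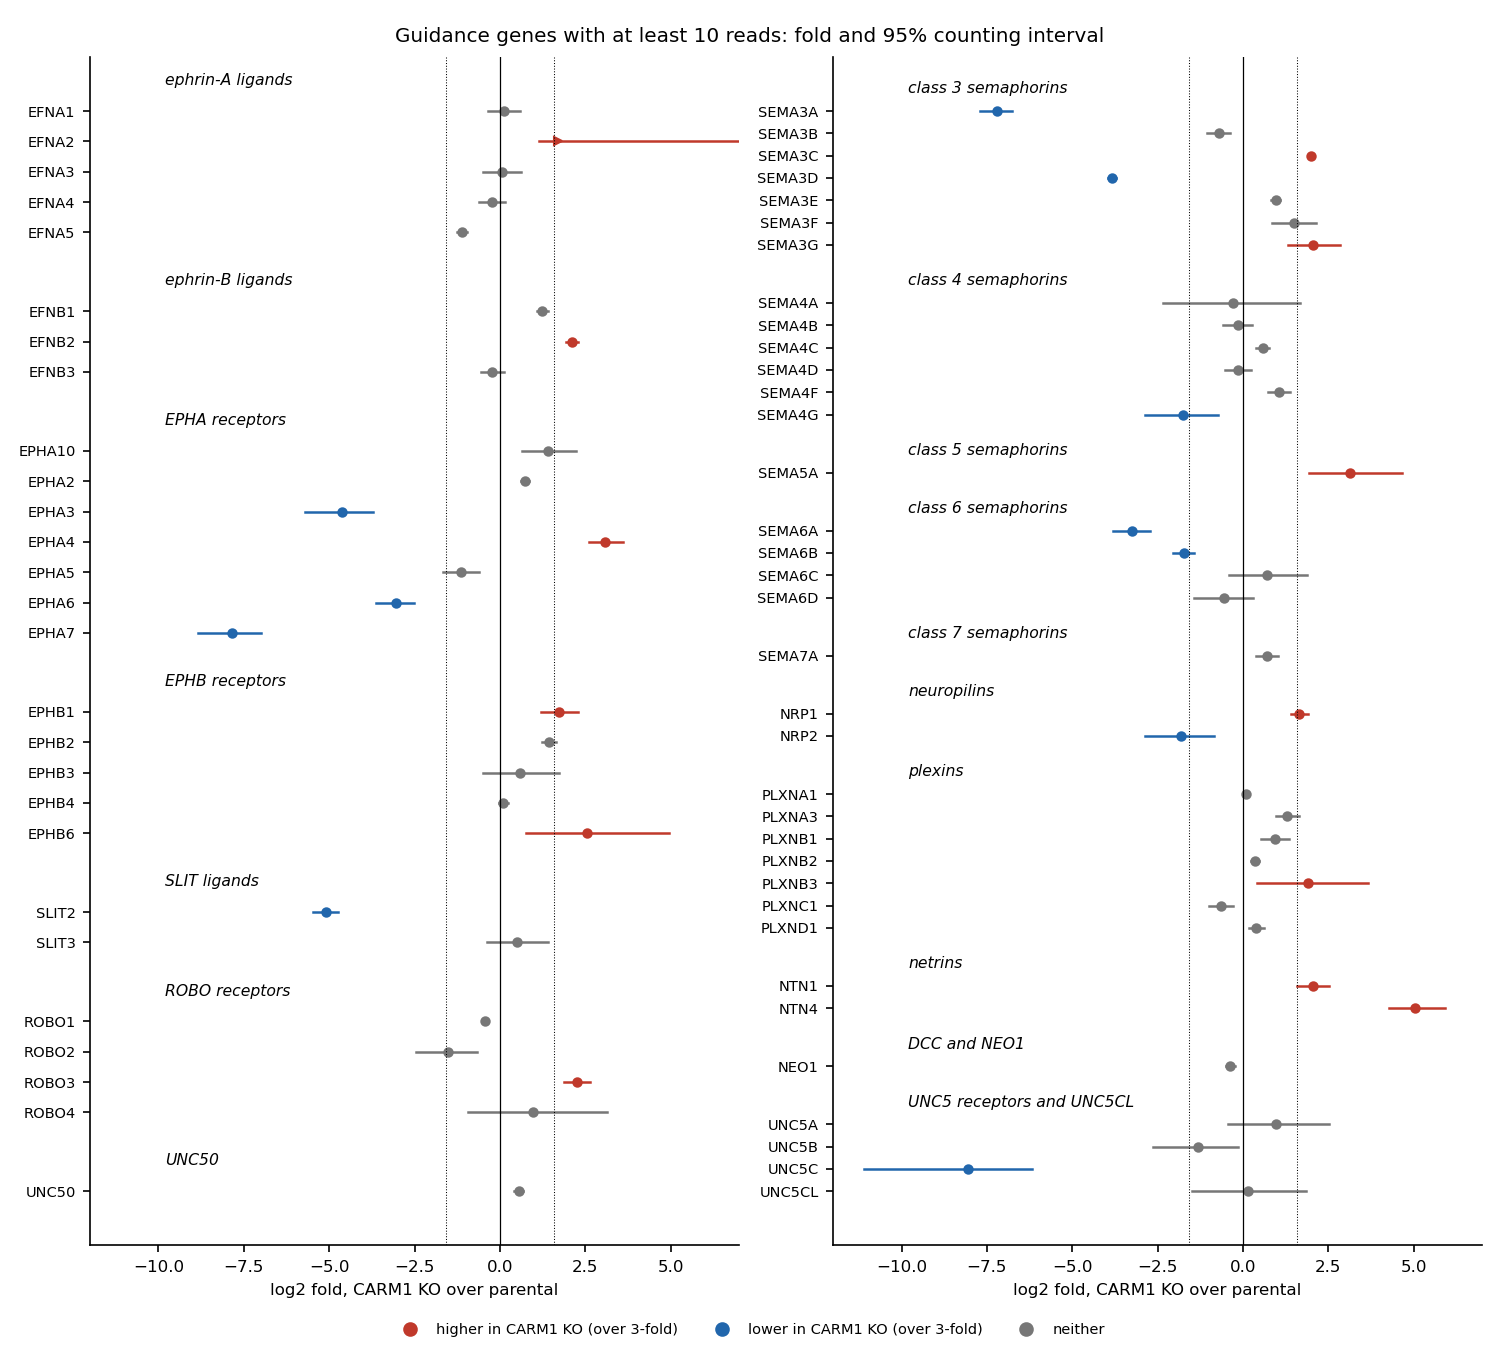
Log2 fold change of CARM1 KO over parental cells (x axis) for the 62 guidance genes with at least 10 reads, grouped by family. Points are ratios of scaled reads, lines are 95% counting intervals, dotted lines mark 3-fold, and the triangle for EFNA2 is its fold against a floor of 3 reads, with an interval that begins at 2.19-fold and has no upper end. EPHA7, UNC5C and SEMA3A lie farthest to the left and NTN4 farthest to the right.

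Among guidance genes the share past 3-fold was similar over classes of read depth, while among protein-coding genes it was lower in deeper classes. With at least 10 but under 100 reads, 7 of 18 guidance genes (38.9%) were past 3-fold, beside 44.1% of protein-coding genes. With at least 100 but under 1000 reads it was 11 of 27 (40.7%), beside 28.5%, and with 1000 reads or more it was 6 of 17 (35.3%), beside 10.2%. Guidance genes were also long, with a median span of 53.1 kb against 34.5 kb for protein-coding genes. Of those that span at least 100 kb, 16 of 27 were past 3-fold, 7 higher and 9 lower, beside 29.7% of protein-coding genes of that span. Of the shorter ones, 8 of 35 were, beside 19.3%.

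**Figure D2:**
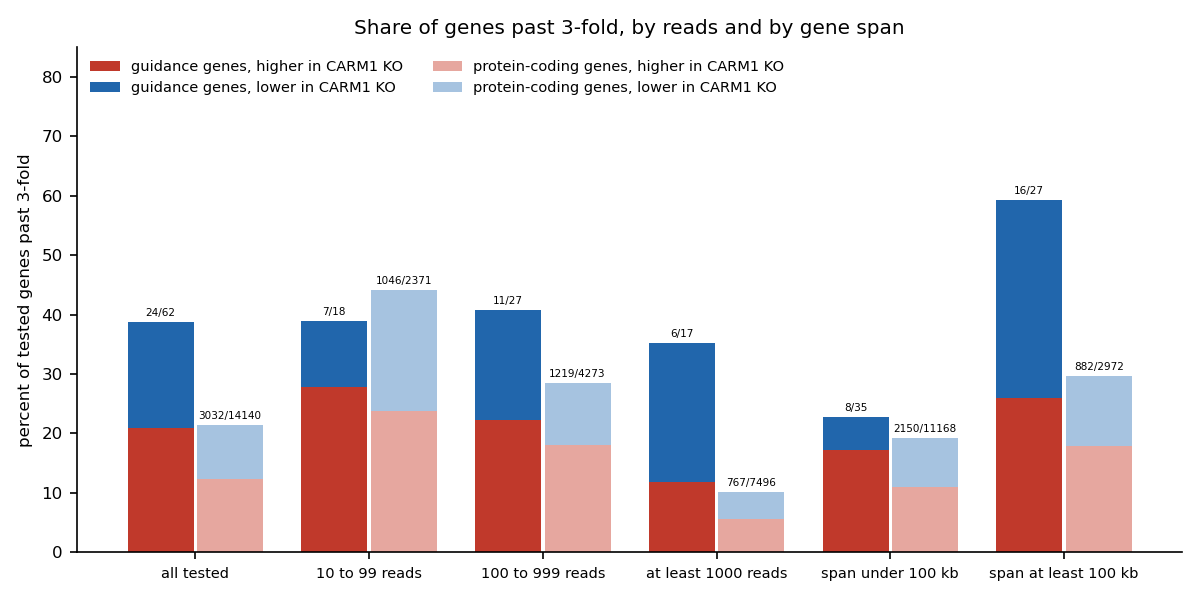
Percent of tested genes past 3-fold (y axis) in classes of reads and of genomic span (x axis), for guidance genes (dark bars) and all protein-coding genes (pale bars), divided into higher and lower in CARM1 KO cells. Numbers above the bars are genes past 3-fold over genes tested. Over the classes of reads the dark bars lie between 35.3% and 40.7%, and the pale bars run from 44.1% to 10.2%.

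Among the ephrin ligands, EFNB2 was the abundant gene past 3-fold. EFNB2, a transmembrane ligand known for marking arteries, had 291 parental and 1287 KO reads. It was 4.32-fold higher after KO (3.80 to 4.92), and the gene occupies chromosome 13, bases 107142093 to 107188010 of GRCh37, on the minus strand. EFNB1 went from 524 to 1272 reads and was 2.37-fold higher (2.14 to 2.63), short of the limit. EFNB3 had 165 parental and 145 KO reads, with an interval that included 1. The ephrin-B genes together summed to 8.61 RPKM in parental and 21.6 RPKM in KO cells.

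The ephrin-A genes, whose proteins are anchored by lipid, summed to 10.9 and 7.57 RPKM. EFNA5 made up 53.6% of this in parental cells and went from 1042 to 495 reads, 2.16-fold lower (1.93 to 2.40) and short of the limit. EFNA2 had 0 parental and 10 KO reads. Against the 3 reads that a count of 0 allows it was at least 3.26-fold higher if the 10 reads are taken as exact. It was counted as higher because its plain ratio, over 0 parental reads, has no finite value and so passed the limit. Its counting interval left out 1 but begins at 2.19-fold and has no upper end. The intervals of EFNA1 (74 and 82 reads), EFNA3 (55 and 59) and EFNA4 (119 and 104) included 1. EFNA4-EFNA3 was listed at 0 reads in both libraries, and how reads were divided among these overlapping genes is uncertain.

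The EPHA receptors bind mainly ephrin-A ligands, and 3 of the 7 with at least 10 reads were lower after KO while 1 was higher. The shares of protein-coding genes were 9.02% lower and 12.4% higher. EPHA7 (ENSG00000135333) had 2465 parental and 11 KO reads, 229-fold lower (128 to 460). It occupies chromosome 6, bases 93949738 to 94129405, minus strand. EPHA3 went from 242 to 10 reads, 24.8-fold lower (13.2 to 52.3). EPHA6 went from 251 to 31 reads, 8.29-fold lower (5.69 to 12.5), and 11.0% of its exon bases are shared with a long noncoding gene on the same strand that had 22 and 0 reads. EPHA3 and EPHA6 both lie on chromosome 3, at bases 89156771 to 89531284 and 96533425 to 97480376, plus strand.

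EPHA4 (ENSG00000116106), known for binding both ephrin-A and ephrin-B ligands, went the other way, from 41 to 357 reads. It was 8.50-fold higher after KO (6.14 to 12.1) and occupies chromosome 2, bases 222282747 to 222438922, minus strand. A noncoding gene opposite 4.67% of its exon bases had 0 and 4 reads. EPHA4 is also on a list of EZH2 target genes that the study selected partly with these libraries. The direction of EPHA4 here is thus not independent evidence for that list. The study's selection also used chromatin data for EZH2 and its histone mark, and correlation with CARM1 expression in tumours. EPHA2, a receptor common in carcinomas, went from 1004 to 1698 reads, 1.65-fold higher (1.53 to 1.79). EPHA5 went from 98 to 46 reads, 2.18-fold lower (1.52 to 3.17), and EPHA10, which lacks an active kinase, from 20 to 54 reads, 2.64-fold higher (1.55 to 4.65), all short of the limit. EPHA1 with 1 and 4 reads and EPHA8 with 8 and 0 reads were under the minimum.

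The summed EPHA level was 14.8 RPKM in each library, and its make-up differed. EPHA2 took 52.5% of the parental and 86.6% of the KO sum, EPHA7 took 32.4% and 0.141%, EPHA3 took 7.96% and 0.321%, and EPHA4 took 1.17% and 9.98%.

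The stretches just before EPHA4 and EPHA7 are shown because these receptors of 1 family differed in opposite directions. Each run is the 250 bases before the annotated start in RefSeq (GRCh38.p14, a later build than the GRCh37 gene positions above), 5′ to 3′ on the strand of the gene, and capitals mark CG pairs.
EPHA4: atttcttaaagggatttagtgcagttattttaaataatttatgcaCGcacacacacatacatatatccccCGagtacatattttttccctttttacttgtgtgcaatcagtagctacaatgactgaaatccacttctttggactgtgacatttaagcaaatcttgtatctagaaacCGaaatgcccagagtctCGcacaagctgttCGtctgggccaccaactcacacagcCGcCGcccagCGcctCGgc
EPHA7: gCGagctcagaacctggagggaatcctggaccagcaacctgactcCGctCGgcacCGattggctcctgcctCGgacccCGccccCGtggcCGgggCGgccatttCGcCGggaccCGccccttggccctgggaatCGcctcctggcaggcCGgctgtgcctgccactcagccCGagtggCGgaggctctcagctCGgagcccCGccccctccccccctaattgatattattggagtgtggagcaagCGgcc
They lie at chr2:221574203-221574452 and chr6:93419560-93419809, both on the minus strand. The EPHA4 stretch holds 9 CG pairs at a GC content of 43.2%, and the EPHA7 stretch holds 19 at 69.6%.

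Of the 5 EPHB receptors, which bind mainly ephrin-B ligands, 2 were higher and 0 were lower after KO. Beside these few genes, 12.4% of protein-coding genes were higher and 9.02% were lower. EPHB1 went from 39 to 132 reads, 3.31-fold higher (2.30 to 4.85). EPHB6, which lacks an active kinase, went from 3 to 18 reads, 5.86-fold higher with a wide interval (1.71 to 31.1). EPHB2 went from 273 to 761 reads, 2.72-fold higher (2.37 to 3.14) and short of the limit. EPHB4, the usual receptor of EFNB2, held the highest EPHB level per length, with 830 parental and 910 KO reads, and its interval (0.974 to 1.18) included 1, as did that of EPHB3 with 13 and 20 reads.

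Class 3 semaphorins held the highest levels of all guidance genes in parental cells, and the leading member was another gene after KO. SEMA3D (ENSG00000153993) went from 7573 to 545 reads, 14.2-fold lower (13.0 to 15.5). SEMA3A (ENSG00000075213), the classical repellent of axons and a ligand of NRP1, went from 5747 to 40 reads, 147-fold lower (108 to 206). SEMA3C (ENSG00000075223), known to promote migration in several carcinomas, went from 3303 to 13394 reads, 3.96-fold higher (3.81 to 4.12). In parental cells the levels per length were 29.4 RPKM for SEMA3D, 19.9 RPKM for SEMA3A and 17.4 RPKM for SEMA3C. In KO cells they were 2.07, 0.135 and 68.9 RPKM. The class summed to 70.9 RPKM in parental and 78.1 RPKM in KO cells, of which SEMA3C made up 24.5% and 88.2%.

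SEMA3E, a ligand of PLXND1 that needs no neuropilin, went from 715 to 1420 reads, 1.94-fold higher (1.77 to 2.13) and short of the limit. SEMA3G went from 19 to 80 reads, 4.11-fold higher (2.47 to 7.18). SEMA3F, a ligand of NRP2, went from 29 to 83 reads, 2.80-fold higher (1.81 to 4.43), and SEMA3B from 205 to 128 reads, 1.64-fold lower (1.31 to 2.06). SEMA3B and SEMA3F are neighbouring candidate tumour suppressors of chromosome 3, and both were short of the limit.

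**Figure D3:**
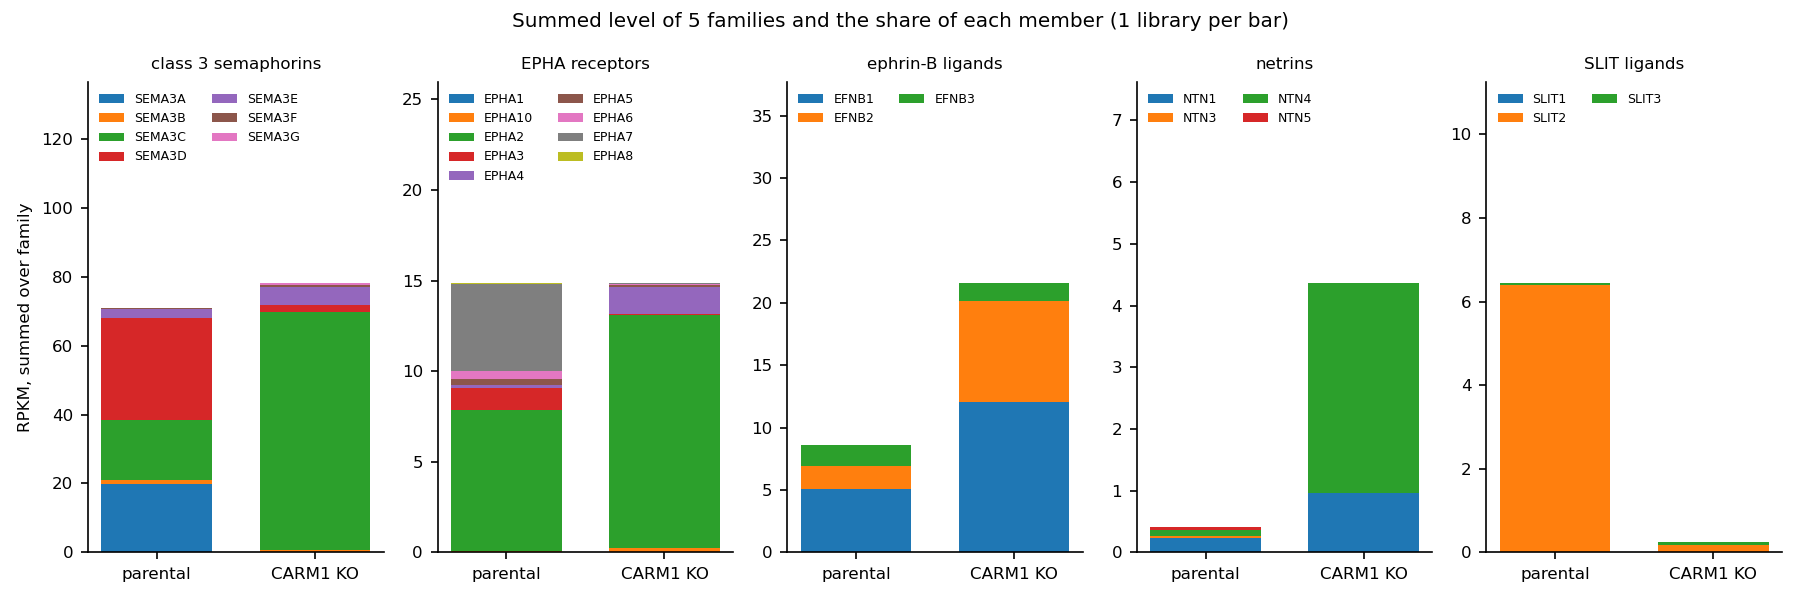
Summed level in RPKM (y axis, a separate scale in each panel) of 5 families in the parental and the CARM1 KO library, with each member as a coloured segment. The class 3 sums (70.9 and 78.1 RPKM) and the EPHA sums (14.8 and 14.8 RPKM) were close with different leading members, while the netrin sum went from 0.409 to 4.36 RPKM and the SLIT sum from 6.44 to 0.251 RPKM.

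SEMA3C, SEMA3E, SEMA3A and SEMA3D lie in this order within 4.44 Mb of chromosome 7, bases 80371854 to 84816372, all on the minus strand. In this stretch and 2 Mb on either side, 12 protein-coding genes had at least 10 reads. Of these 6 were lower, 2 were higher and 4 were neither, beside 9.02% lower and 12.4% higher among all protein-coding genes tested. The nearest tested genes on either side of SEMA3C were both lower. CD36 went from 95 to 8 reads, and HGF, which encodes the ligand of MET, from 25283 to 4 reads. CACNA2D1 and PCLO, between HGF and SEMA3E, were 12.7-fold and 6.14-fold lower. SEMA3E lay between the lower genes PCLO and SEMA3A. ELAPOR2, beyond SEMA3D, went from 26 to 216 reads and was higher.

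**Figure D4:**
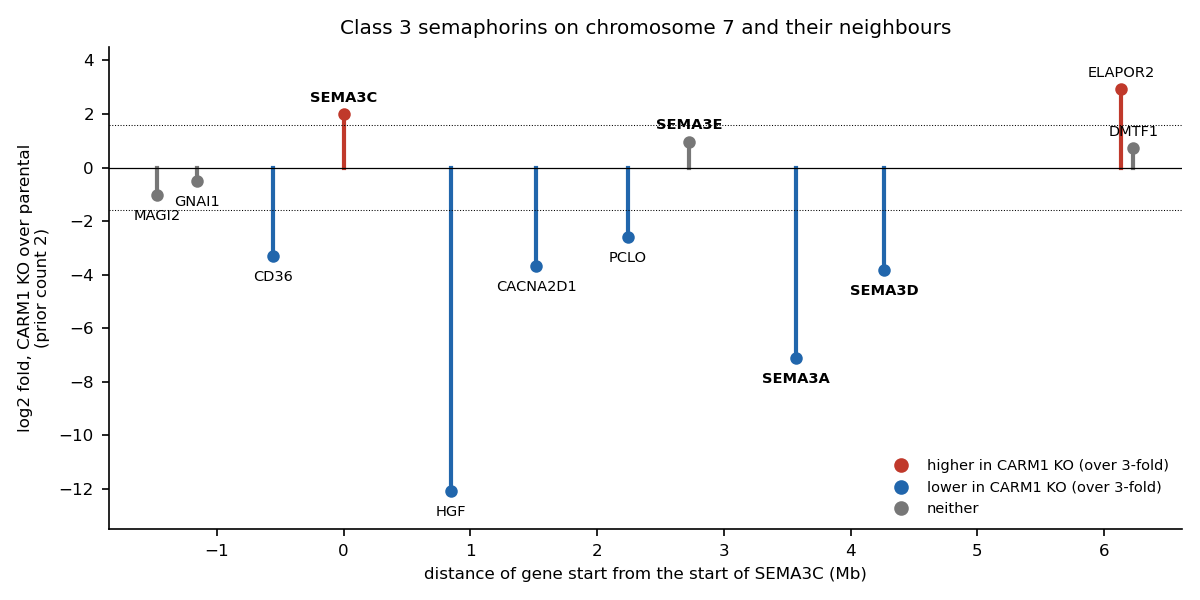
Log2 fold change of CARM1 KO over parental cells with a prior count of 2 (y axis) against the distance of each gene's start from that of SEMA3C in Mb (x axis), for the 12 protein-coding genes with at least 10 reads around the class 3 semaphorins of chromosome 7. Dotted lines mark 3-fold. SEMA3C lies at 1.99 and SEMA3E at 0.95, while SEMA3A lies at -7.13, SEMA3D at -3.83 and HGF at -12.07.

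The stretches before SEMA3C and SEMA3D are shown because these members of the cluster differed in opposite directions. SEMA3A, which differed more than SEMA3D, had no matched stretch. The runs are from the same source and carry the same marks as above.
SEMA3C: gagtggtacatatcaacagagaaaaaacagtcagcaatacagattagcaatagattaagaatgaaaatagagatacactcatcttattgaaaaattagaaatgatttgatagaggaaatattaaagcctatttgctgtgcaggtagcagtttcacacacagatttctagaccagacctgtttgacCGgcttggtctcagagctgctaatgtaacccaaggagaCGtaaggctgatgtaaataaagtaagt
SEMA3D: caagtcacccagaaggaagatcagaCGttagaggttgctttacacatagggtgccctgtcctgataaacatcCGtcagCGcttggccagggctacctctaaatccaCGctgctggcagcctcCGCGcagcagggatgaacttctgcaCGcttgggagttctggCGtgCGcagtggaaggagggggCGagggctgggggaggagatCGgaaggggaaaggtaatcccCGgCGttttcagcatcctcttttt
They lie at chr7:80922390-80922639 and chr7:85187057-85187306, both on the minus strand. SEMA3C holds 2 CG pairs at a GC content of 36.4%, and SEMA3D holds 13 at 57.6%.

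Of the semaphorins outside class 3, which are mostly bound to the membrane, SEMA5A was higher and SEMA4G, SEMA6A and SEMA6B were lower after KO. SEMA6A, a ligand of A-type plexins, went from 304 to 33 reads, 9.43-fold lower (6.57 to 14.0). SEMA6B went from 362 to 111 reads, 3.34-fold lower (2.69 to 4.17). The class 6 sum was 3.54 and 1.02 RPKM, with SEMA6C (12 and 20 reads) and SEMA6D (30 and 21) at intervals that included 1. SEMA5A went from 6 to 54 reads, 8.79-fold higher (3.79 to 25.0), and SEMA5B had 1 and 0 reads.

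SEMA4G went from 36 to 11 reads, 3.35-fold lower (1.67 to 7.30). MRPL43, opposite 22.9% of its exon bases, had 151 and 284 reads, and whether the counting used strand is not given in the sources used here. SEMA4C, the most abundant class 4 gene per length, went from 374 to 573 reads, SEMA4F from 125 to 264 reads and SEMA7A from 127 to 212 reads, between 1.50-fold and 2.06-fold higher and short of the limit. SEMA4A (6 and 5 reads), SEMA4B (102 and 94) and SEMA4D (127 and 118) had intervals that included 1.

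The neuropilins, co-receptors of class 3 semaphorins and of VEGF, differed in opposite directions. NRP1 went from 172 to 550 reads, 3.12-fold higher (2.63 to 3.73). NRP2 went from 41 to 12 reads, 3.50-fold lower (1.80 to 7.31). NRP1 made up 83.5% of their summed level in parental and 98.2% in KO cells.

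Of the plexins, the signalling receptors of semaphorins, PLXNB3 was past 3-fold, from 5 to 19 reads (1.34 to 12.7), and it shares 20.4% of its exon bases with SRPK3 on the same strand. The abundant plexins were PLXNA1, a partner of neuropilins, with 1778 and 1933 reads, and PLXNB2, a receptor of class 4 semaphorins, with 1044 and 1356 reads. PLXNA1 had an interval that included 1, and PLXNB2 was 1.27-fold higher (1.17 to 1.38). PLXNA3 went from 110 to 278 reads, 2.47-fold higher (1.97 to 3.11), and PLXNB1, the receptor of SEMA4D, from 77 to 151 reads. PLXND1 had 311 and 418 reads, and PLXNC1, the receptor of SEMA7A, had 169 and 111 reads. PLXNA2 (6 and 0 reads) and PLXNA4 (0 and 2) were under the minimum. Plexin levels summed to 11.9 and 14.3 RPKM.

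SLIT2 (ENSG00000145147) made up 99.1% of the SLIT level of parental cells. It went from 2200 to 66 reads, 34.1-fold lower after KO (26.7 to 44.3), and occupies chromosome 4, bases 20253528 to 20622184, plus strand. SLIT3 had 20 and 29 reads, and SLIT1 had 3 and 0 reads and shares exons with the readthrough gene ARHGAP19-SLIT1. Of the receptors, ROBO1 went from 4770 to 3636 reads, 1.34-fold lower (1.29 to 1.40), and held 96.9% and 86.0% of the ROBO sum. ROBO3, a divergent member known to bind Slits poorly, went from 74 to 359 reads, 4.74-fold higher (3.68 to 6.17). ROBO2 went from 45 to 16 reads, 2.88-fold lower (1.60 to 5.46) and short of the limit, and ROBO4, the endothelial member, had 4 and 8 reads.

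NTN1 and NTN4, the netrin ligands with at least 10 reads, were both higher after KO. NTN4 (ENSG00000074527), a netrin of basement membranes that binds laminins, went from 14 to 472 reads, 32.9-fold higher (19.4 to 60.7). It occupies chromosome 12, bases 96051583 to 96184967, minus strand. NTN1, the ligand of DCC and UNC5 receptors, went from 47 to 198 reads, 4.11-fold higher (2.98 to 5.78). NTN3 with 2 and 0 reads and NTN5 with 4 and 0 reads were under the minimum.

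Of the UNC5 receptors and UNC5CL, 4 had at least 10 reads, of which 0 were higher and 1 was lower. The shares of protein-coding genes were 12.4% and 9.02%, and so few genes cannot be compared with them. UNC5C (ENSG00000182168) went from 516 to 2 reads, 264-fold lower with a wide interval (72.8 to 2187). It occupies chromosome 4, bases 96083655 to 96470357, minus strand, and took 87.3% of the parental and 2.51% of the KO level of the UNC5 receptors and UNC5CL. UNC5B had 22 and 9 reads and UNC5A 7 and 14 reads, neither past 3-fold. UNC5CL, which shares 23.7% of its exon bases with OARD1, had 7 and 8 reads, and UNC5D had 0 and 2 reads. DCC had 0 reads in both libraries, which allows up to 3 reads in each. NEO1, a receptor widely expressed outside the nervous system, went from 921 to 732 reads, 1.29-fold lower (1.17 to 1.42). UNC50, which is no netrin receptor, went from 914 to 1369 reads, 1.46-fold higher (1.34 to 1.59).

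**Figure D5:**
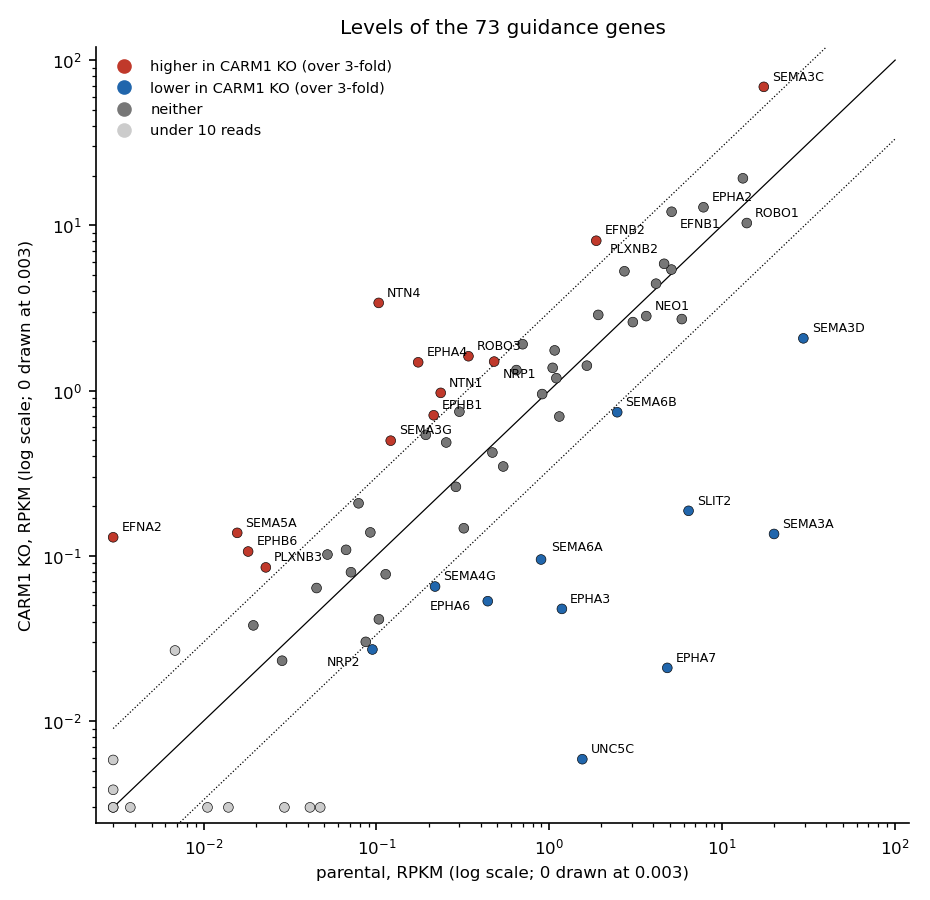
Level of each of the 73 guidance genes in the CARM1 KO library (y axis) against the parental library (x axis), in RPKM on log scales, with 0 drawn at 0.003. The solid line marks equal levels and the dotted lines 3-fold. SEMA3C is highest in CARM1 KO cells at 68.9 RPKM, and SEMA3D, SEMA3A, SLIT2 and EPHA7 lie far below the line.

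The stretches before NTN4 and SLIT2 are shown as the netrin and the Slit with the largest fold, which differed in opposite directions, with the same source and marks.
NTN4: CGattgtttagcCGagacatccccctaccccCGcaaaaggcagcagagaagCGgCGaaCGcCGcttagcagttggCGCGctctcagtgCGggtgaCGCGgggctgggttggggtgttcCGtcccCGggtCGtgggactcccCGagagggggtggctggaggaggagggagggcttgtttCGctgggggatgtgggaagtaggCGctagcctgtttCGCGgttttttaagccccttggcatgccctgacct
SLIT2: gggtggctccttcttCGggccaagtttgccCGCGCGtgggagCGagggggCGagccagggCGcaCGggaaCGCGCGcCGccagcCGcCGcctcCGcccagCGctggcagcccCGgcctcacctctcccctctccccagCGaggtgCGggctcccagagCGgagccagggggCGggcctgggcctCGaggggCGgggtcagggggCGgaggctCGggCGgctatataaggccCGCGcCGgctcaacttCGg
They lie at chr12:95791156-95791405 on the minus strand and chr4:20251655-20251904 on the plus strand. NTN4 holds 20 CG pairs at a GC content of 64.4%, and SLIT2 holds 30 at 77.2%.

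Both directions occurred among ligands and among receptors. Of 31 ligand genes with at least 10 reads 7 were higher and 6 were lower. Of 30 receptor genes, counted together with UNC5CL, 6 were higher and 5 were lower. The shares of protein-coding genes were 12.4% and 9.02%. The difference between ligands and receptors was not tested. Levels per length of some known pairs are set side by side here, chosen after their values were seen and given for parental and then KO cells. SLIT2 was at 6.38 and 0.187 RPKM and its receptor ROBO1 at 13.9 and 10.3 RPKM. EFNA5 was at 5.83 and 2.71 RPKM, EPHA7 at 4.81 and 0.0210 RPKM and EPHA2 at 7.79 and 12.9 RPKM. EFNB1 was at 5.09 and 12.1 RPKM, EFNB2 at 1.87 and 8.06 RPKM, EPHB4 at 4.14 and 4.43 RPKM and EPHA4 at 0.174 and 1.48 RPKM. NRP1 was at 0.479 and 1.50 RPKM, beside the class 3 semaphorin levels given above. These are levels of RNA and do not give the amount of protein at the cell surface.

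Few of the guidance genes past 3-fold lay beside a gene that differed in the same direction. The nearest tested protein-coding gene on either side was also higher for 1 of 13 higher guidance genes, EPHA4 with SLC4A3, beside 40.0% of all higher protein-coding genes. It was also lower for 2 of 11 lower ones, SEMA3A and SEMA3D, which are each other's neighbour, beside 38.6% of all lower protein-coding genes. EPHA7 lay between MAP3K7 and MANEA, with log2 fold changes of -0.16 and -0.29. SLIT2 lay between LCORL and PACRGL, with -0.04 and -0.26, and EPHA3 between C3orf38 and PROS1, with -0.26 and 0.06. NTN4 lay beside USP44, which differed the other way, with 321 parental and 3 KO reads.

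RefSeq stretches of 250 bases were matched for 54 of the 62 guidance genes. The CpG ratio, the number of CG pairs over that given by the same C and G bases in random order, was above 0.6 in 8 of 8 lower, 7 of 11 higher and 21 of 35 remaining guidance genes. The share was 78.2% among all protein-coding genes tested, 62.5% among higher and 61.1% among lower ones. The median ratio hardly differed by direction, at 0.652 in lower, 0.658 in higher and 0.650 in remaining guidance genes. It was 0.813 in all protein-coding genes tested. Of the stretches printed above, the ratio was 0.812 for EPHA4, 0.636 for EPHA7, 0.248 for SEMA3C, 0.639 for SEMA3D, 0.801 for NTN4 and 0.808 for SLIT2. SEMA3A, SEMA6A, SEMA6B, NRP1 and NTN1 were not among the matched genes.

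Short motifs were searched on both strands of the same stretches. The E-box CACCTG, which ZEB and SNAI factors bind, was in 3 of 11 higher guidance genes (EFNB2, PLXNB3 and SEMA3G) and 1 of 8 lower ones (EPHA6). It was in 4 of 35 remaining guidance genes, 15.8% of all protein-coding genes tested, 19.4% of higher and 16.0% of lower ones. The AP-1 motif TGANTCA was in 0 of 11 and 0 of 8, beside 3.94% of all, 6.91% of higher and 4.76% of lower protein-coding genes. The TEAD motif GGAATG was in 1 of 11 (PLXNB3) and 0 of 8, beside 9.61% of all, 11.1% of higher and 10.9% of lower protein-coding genes. A match describes these letters in this window and no more.

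Other genes of these pathways were examined as lists. Of the co-receptors and other ligands with at least 10 reads, 6 of 21 (28.6%) were higher and 0 were lower after KO, beside 12.4% and 9.02% of protein-coding genes, with a median log2 fold change of 0.45. MET, a partner of B-type plexins and the receptor of HGF, went from 859 to 4486 reads. L1CAM, an adhesion partner of NRP1, went from 100 to 775 reads, and FLRT2, a ligand of UNC5 receptors, from 194 to 1291 reads. The heparan sulfate proteoglycan SDC2 went from 1128 to 4424 reads, the growth factor VEGFC from 31 to 205 reads and the VEGF receptor FLT1 from 39 to 151 reads. VEGFA, a ligand of NRP1, went from 963 to 338 reads, 2.92-fold lower (2.57 to 3.31) and short of the limit.

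Of the effectors inside the cell, 8 of 55 were higher and 5 were lower (14.5% and 9.09%), near the 12.4% and 9.02% of protein-coding genes, with a median log2 fold change of 0.28. Among the higher ones were the kinase FYN (262 and 1550 reads), the exchange factors VAV2, VAV3, ARHGEF16 and KALRN, the redox enzyme MICAL2 (736 and 2273) and the actin-binding protein ABLIM3. The lower ones were the kinase FES (133 and 5 reads), NGEF, the exchange factor that acts below EPHA4 (112 and 20), RND1, DPYSL4 of the collapsin response mediators and the adaptor GRB10. Among 8 genes of the Polycomb complex, with EZH1 as well as EZH2, and of BAF complexes, 0 were past 3-fold, beside 21.4% of protein-coding genes. EZH1 had 499 parental and 1036 KO reads, 2.03-fold higher (1.82 to 2.26), and EZH2 had 3141 and 5380.

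The counts depended on how strictly the spread was treated. When the whole interval had to lie past 3-fold, 6 of 62 guidance genes were higher and 8 of 62 lower. The shares of protein-coding genes were 7.65% and 6.19% (13.8% in either direction). EPHB1, EPHB6, EFNA2, NRP1, NTN1, SEMA3G, PLXNB3, NRP2, SEMA4G and SEMA6B were lost. With edgeR's exact test at an assumed biological coefficient of variation of 0.4, 3 of 62 were higher (EPHA4, NTN4 and SEMA5A) and 8 of 62 lower. The shares of protein-coding genes were 3.1% and 4.38% (7.48% in either direction).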

How the data were processed

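RNA-Seq was analysed from 1 parental and 1 CARM1 KO library of A1847 cells, grouped by the genotype in the labels. The authors aligned read pairs to hg19 with bowtie2, obtained estimated counts for Ensembl genes by RSEM, and deposited these as whole numbers without normalization. RSEM is version 1.2.3 in the submitters' processing notes, and the study's methods name a later release. The Ensembl release and the use of strand are not given in the sources used here. Because RSEM assigns shared reads by estimate, counts of overlapping genes are uncertain.

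Gene names and positions came from GENCODE lifted to GRCh37, the assembly of hg19, which matched 55501 of 57736 identifiers. Counts were scaled by TMM in edgeR 4.0.16 under R 4.3.3, and exact 95% intervals of folds were computed with scipy 1.17.1. A gene needed at least 10 reads, a fold above 3 and an interval without 1. The quasi-likelihood test of edgeR needs replicates and was not fitted, so no P value is given. Medians and the chromosome 7 plot use log2 folds with a prior count of 2, and RPKM uses merged exons. The alternatives were scaling by library size, by DESeq2 1.42.0 size factors, by the upper quartile and by TMM on protein-coding genes. Further ones were minimums of 1 and 50 reads, a fold of 2, the whole interval past 3-fold, a prior count of 0.5, counts under 3 set to 3, and edgeR's exact test (FDR under 0.05) at assumed coefficients of variation of 0.12, 0.2 and 0.4. The steps were tested on simulated data. The members and all lists were chosen with earlier results of these data known. Every member is named, with CARM1 and the genes past 3-fold on the pathway lists, except for an item that is not reported here. VEGFA, EZH1, EZH2, single markers and neighbouring genes were named after their values were seen.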

Additional observations from a re-analysis of the deposited data

How the results depend on the processing

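The 4 other scalings kept the same 13 higher and 11 lower guidance genes, and CARM1 stayed lower under each. When the whole interval had to lie past 3-fold, 6 of 62 guidance genes and 1082 of 14140 protein-coding genes were higher. At a coefficient of variation of 0.4, 3 of 62 guidance genes and 438 of 14140 protein-coding genes were higher, and 620 protein-coding genes were lower. A fold of 2 gave 2657 higher and 2096 lower protein-coding genes. With a minimum of 1 read, EPHA8 and PLXNA2 were also lower, and with 50 reads EFNA2, EPHB6, PLXNB3 and SEMA4G were not tested. These minimums put other genes in the median log2 fold change of guidance genes, which was 0.13 with 1 read and 0.10 with 50, against 0.37. Of 260 comparisons of single guidance genes under these settings, 236 kept the call and 24 lost it. Of those lost, 13 were at a coefficient of variation of 0.4, 10 under the whole interval and 1 (PLXNB3) at 0.2. The minimum of 1 read and the fold of 2 (24 kept under each) are looser rules that could not lose a call. The minimum of 50 reads (20 kept) left out the genes it did not test, so it could not lose a call either. None of the comparisons reversed, but among them only the 4 other scalings change the fold itself. Across those scalings the log2 fold of PLXNB3 stayed between 1.52 and 1.58, so the lack of reversals is no check of direction. No paired analysis was possible because each genotype has 1 library, so leaving out a library was not possible either, and the test of DESeq2 was not run.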
